A study of Mus musculus with 9 samples.

Results

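The nuclear genes for the subunits of the respiratory chain and of ATP synthase were followed in 3 mouse embryonic stem (ES) cell lines. They were taken by symbol: Ndufa, Ndufb, Ndufc, Ndufs and Ndufv for complex I, Uqcr with Cyc1 and Cycs for complex III and cytochrome c, Cox4i to Cox8 for complex IV, and Atp5 for complex V, leaving out the Ndufaf assembly factors and 19 pseudogenes. This gave 86 genes of the 20660 named on the array, of which 83 had a probe with a gene name. The 3 without one were Ndufb1, Ndufb4b and Ndufb4c. A probe had to be well above background, as the scanner software calls it, on at least 3 of 9 arrays, and 82 members passed. Cox8b was below that level, with log2 signals of 2.32 to 4.33. The tested members comprised 36 of complex I, 10 of complex III with cytochrome c, 19 of complex IV including Ndufa4 and Ndufa4l2, and 17 of complex V.

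The lines were wild type, PKm1 knock-in and PKm2 knock-in, named for the M1 and M2 forms of pyruvate kinase, the last enzyme of glycolysis. Undifferentiated cells kept with LIF, a cytokine that holds mouse ES cells in the pluripotent state, were day 0. Embryoid bodies, floating aggregates in which ES cells differentiate, were taken after 3 and 7 days without LIF. RNA of each line and day went to 1 one-colour array with no repeat, so each genotype is 1 line, the 3 lines stand as repeats of a day, and p-values measure only the spread between these arrays. The Pkm probe read 13.65, 16.12 and 14.68 in the wild type, 13.59, 14.74 and 13.94 in the PKm1 knock-in, and 13.80, 14.32 and 13.62 in the PKm2 knock-in at days 0, 3 and 7; where it lies relative to the exons that tell the forms apart is not given in the sources used here, so it does not check the genotype labels.

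Complex I passes electrons from NADH to ubiquinone, complex III passes them on to cytochrome c, and complex IV hands them to oxygen; all 3 pump protons, and complex V uses the returning protons to make ATP. Most subunits are made in every tissue, while a few subunits of complex IV have a second gene used in muscle, testis or lung, or under low oxygen. Pluripotent cells are known for a high rate of glycolysis alongside active respiration.

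The 9 arrays sat on 3 slides of 5, 3 and 1 arrays, the last holding only the PKm2 knock-in at day 7. Days 0, 3 and 7 sat on slides 1, 2 and 1 in the wild type and 2, 1 and 2 in the PKm1 knock-in. In the PKm2 knock-in they sat on slides 1, 1 and 3. In day 3 minus day 0 and day 7 minus day 3, differences between lines and between slides therefore cannot be told apart. In day 7 minus day 0 this holds for the PKm2 knock-in. Between 54.2% and 61.6% of probes were well above background and no spot was saturated. The 8 pluripotency markers were all detected at day 0, and the log2 of their summed signal was 17.73 to 18.11 there, 17.51 to 17.62 at day 3 and 16.32 to 17.76 at day 7. All marker and target sums below are given in this way, so the brightest genes of a list weigh most. The 6 tested fibroblast or feeder markers summed to 11.73 to 13.93 at day 0 and 9.31 to 10.32 at day 3, with Col1a2 (log2 difference -4.43) and Dcn (-6.20) called lower by limma; visceral endoderm markers summed to 11.43 to 18.80 at day 7. The part of these other cell types in the results was not tested, and in whole cultures fewer cells of a type and less RNA per cell cannot be told apart.

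Signals are given as log2 of the scanner's processed signal after scaling the arrays to a common 75th percentile; where 3 values stand together they are wild type, PKm1 knock-in and PKm2 knock-in. Levels of different probes are not compared. Of 82 tested members, 79 were well above background on all 9 arrays. The range over 9 arrays was under 1 log2 unit for 54 of 82, with a median of 0.85 against 1.37 for all genes, and outside the tissue isoforms it reached at most 2.01, in Cycs.

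**Figure D1:**
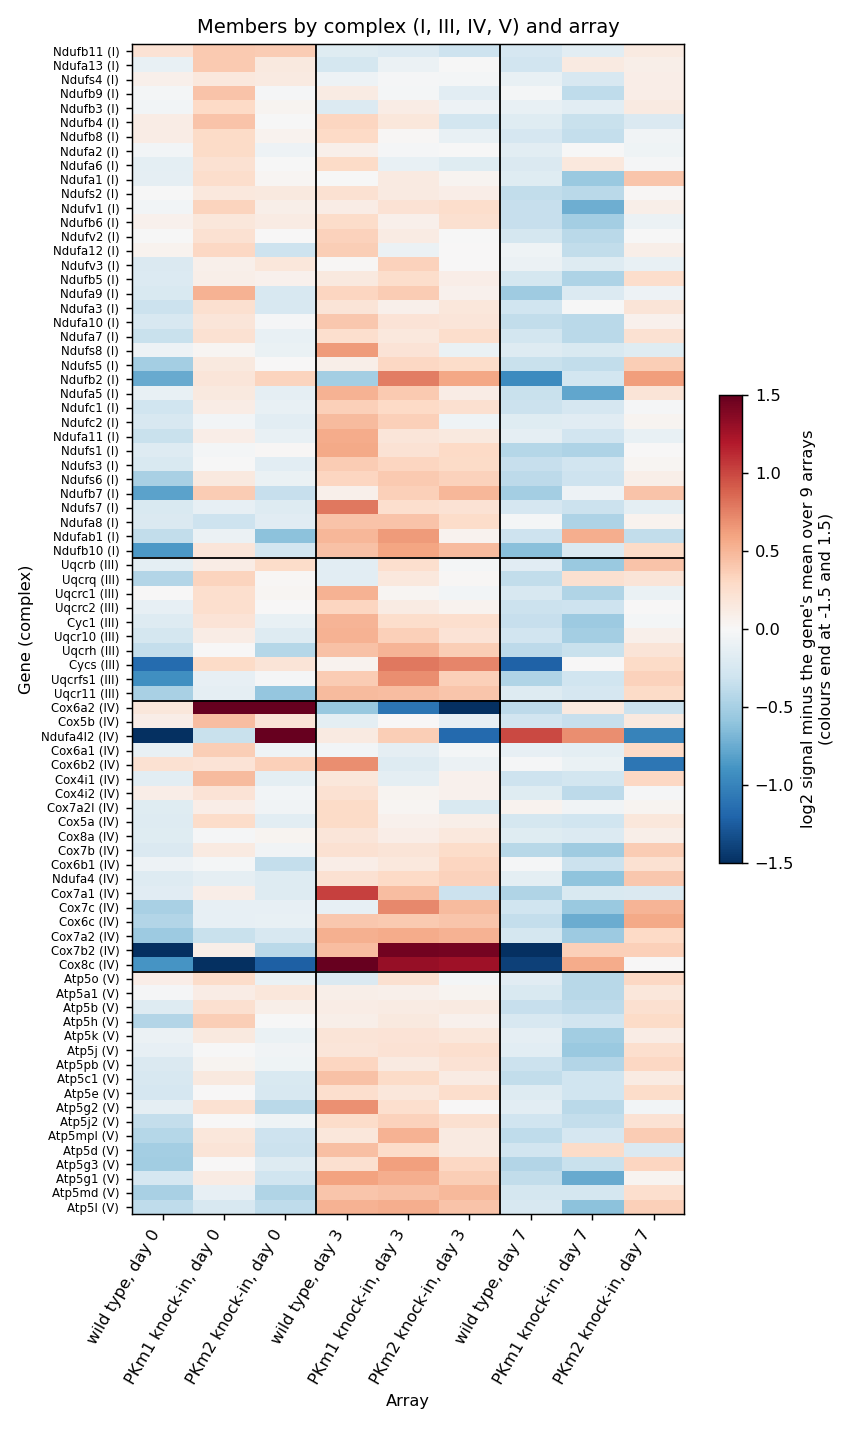
Heat map of the 82 tested members (vertical axis, grouped by complex) on the 9 arrays (horizontal axis, ordered by day and line); colour is log2 signal minus the gene's own mean, ending at -1.5 and 1.5. Most members are redder at day 3, where array medians lie 0.14 to 0.28 above the genes' means, and bluer at day 7 in the wild type (-0.28) and PKm1 knock-in (-0.32), but not in the PKm2 knock-in (0.12).

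At day 3 of differentiation most members read higher than at day 0, by small amounts. Of 82, 63 were higher on average, against 56.8% of all genes, and the median log2 difference was 0.29 against 0.09. In 43 the difference was positive in 3 of 3 lines (33.6% of all genes), in 6 it was negative in 3 of 3 (23%). The limma test, adjusted over 15016 genes, called 2 members, both higher (4.01% of all genes were called in either direction 1.82% higher and 2.19% lower), and 18 had an unadjusted p under 0.05 (26.2% of all genes). Day 3 and day 0 values did not overlap in 34 members that were higher (21.9% of all genes) and 4 that were lower (14.3%); the 34 were 11 of complex I, 5 of III, 9 of IV and 9 of V. With quantile normalization the median of members was 0.09 and that of all genes 0.02, and with scaling to detected probes 0.12 and -0.08. The line medians were 0.52 in the wild type, 0.08 in the PKm1 knock-in and 0.27 in the PKm2 knock-in. Only the PKm2 knock-in had both days on the same slide, so differences between these line medians cannot be told apart from slide.

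**Figure D2:**
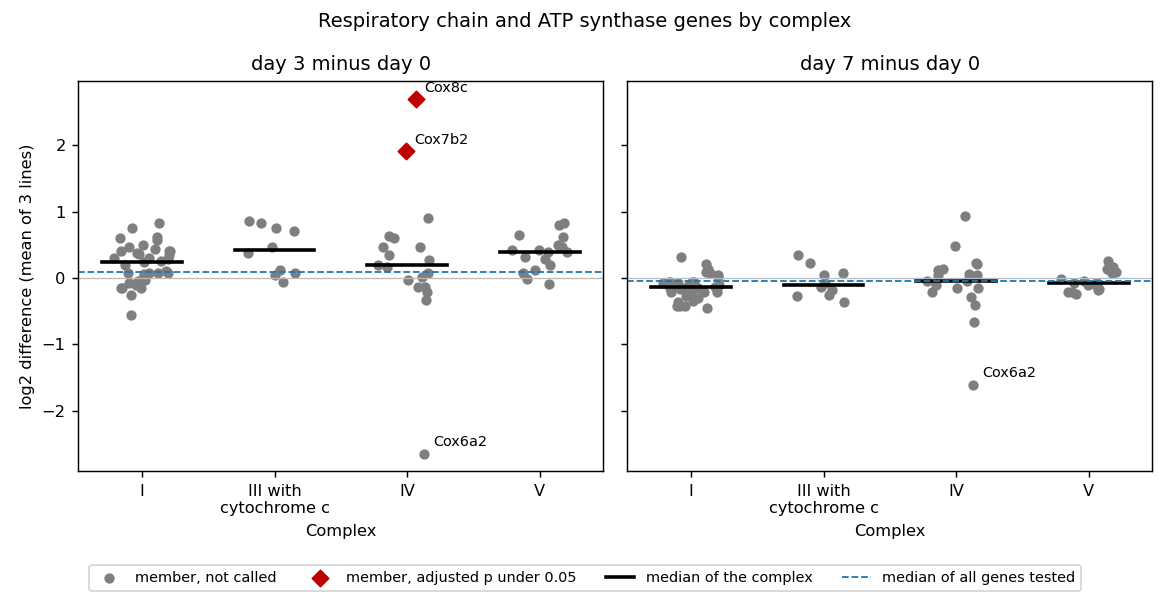
Log2 difference of each member (points; horizontal axis, complex) between day 3 and day 0, left, and day 7 and day 0, right, as the mean over 3 lines; black bars are complex medians and the dashed line the median of all genes tested. At day 3 the medians of the 4 complexes are 0.20 to 0.43 against 0.09, and only Cox7b2 and Cox8c (diamonds) pass the test.

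In complex I, 26 of 36 members were higher at day 3 and the median log2 difference was 0.25, with line medians of 0.47, -0.02 and 0.19. None was called. The 7 core subunits, which carry the flavin and the iron-sulfur clusters, were all higher on average (median 0.30). Ndufb10, an accessory subunit of the membrane arm, had the largest difference: it read 13.24, 14.27 and 13.82 at day 0, 14.54, 14.69 and 14.57 at day 3 and 13.47, 13.88 and 14.39 at day 7. Every day 3 value was above every day 0 value, but the difference of 0.82 ± 0.26 did not pass (limma adjusted p = 0.120). Here and below, ± gives the standard error of the limma fit on all 9 arrays. In it the spread of each gene is drawn towards that of all genes, so it is not the spread of the 3 line differences. Ndufab1, the mitochondrial acyl carrier protein that is also a complex I subunit, read 9.40, 9.68 and 9.15 at day 0, 10.27, 10.40 and 9.82 at day 3 and 9.46, 10.31 and 9.40 at day 7, 0.75 ± 0.20 higher at day 3 (limma adjusted p = 0.0879). Its PKm1 knock-in line stayed near the day 3 level at day 7 while the other lines returned towards day 0.

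Ndufb11, a membrane-arm subunit encoded on the X chromosome, went the other way. It read 15.17, 15.34 and 15.33 at day 0, 14.78, 14.74 and 14.64 at day 3 and 14.70, 14.80 and 15.09 at day 7. All day 3 values lay below all day 0 values, with a difference of -0.56 ± 0.19 that did not pass (limma adjusted p = 0.127). A dimmer second Ndufb11 probe, also well above background on 9 arrays, read 7.45, 7.71 and 7.88 at day 0 and 7.46, 6.70 and 7.97 at day 3. Its mean difference was -0.31, the days overlapped, and only the PKm1 knock-in was lower. Ndufa8, a subunit with paired cysteines on the intermembrane side, read 11.81, 11.72 and 11.85, then 12.45, 12.45 and 12.30, then 12.00, 11.56 and 12.08 on the 3 days, and its day 3 and day 0 values did not overlap. Ndufv1, which binds NADH and the flavin, read 15.00, 15.37 and 15.13 at day 0, 15.15, 15.25 and 15.30 at day 3 and 14.69, 14.31 and 15.13 at day 7. Its low values were the wild type and PKm1 knock-in arrays at day 7, and the day 7 minus day 0 difference was -0.46 ± 0.24 (limma adjusted p = 0.433).

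Complex III and cytochrome c had the highest complex median, 0.43, with 9 of 10 members higher at day 3 and line medians of 0.75, 0.19 and 0.36; none was called. Uqcr11, a small subunit beside the Rieske protein, read 14.13, 14.47 and 14.02 at day 0, 15.09, 15.08 and 15.03 at day 3 and 14.41, 14.35 and 14.89 at day 7. The day 3 values lay close together and above all day 0 values, a difference of 0.86 ± 0.23 (limma adjusted p = 0.0881). Uqcrfs1, the Rieske iron-sulfur protein, differed by 0.83 ± 0.26 and Uqcrh, the hinge protein, by 0.70 ± 0.24, neither called. The only member of this group with a negative difference was Uqcrb, a ubiquinone-binding subunit, which read 14.73, 14.99 and 15.15, 14.72, 15.13 and 14.84 and 14.70, 14.32 and 15.30 on the 3 days (-0.06 ± 0.26 at day 3). Its other probes, also well above background on 9 arrays, gave 0.39 and 0.13, so the sign depended on the probe. Uqcrc1, a core protein of the matrix side, read 13.06, 13.31 and 13.09 at day 0, 13.58, 13.09 and 13.02 at day 3 and 12.82, 12.61 and 12.96 at day 7. All its day 7 values lay below all day 0 values; the lines differed by -0.24, -0.70 and -0.13, with a mean of -0.36 ± 0.23 (limma adjusted p = 0.491).

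Complex V, the ATP synthase, was higher at day 3 for 15 of 17 members (median 0.39; lines 0.60, 0.15 and 0.35), and none was called. By part, the median was 0.39 for the 5 F1 subunits, which form the catalytic head and the central stalk, and 0.20 for the 4 peripheral stalk subunits. It was 0.62 for the 3 c-ring genes and 0.46 for the 5 small membrane subunits. Within F1, Atp5a1 and Atp5b of the head differed by -0.02 and 0.08. Atp5c1, Atp5d and Atp5e of the central stalk differed by 0.39, 0.50 and 0.39. Atp5l, subunit g of the membrane part, read 15.06, 15.20 and 15.06 at day 0, 15.95, 15.98 and 15.87 at day 3 and 15.20, 14.82 and 15.80 at day 7. Its day 3 values were all above its day 0 values (0.83 ± 0.26, limma adjusted p = 0.114). Atp5md, a small subunit of the synthase dimer, read 14.29, 14.65 and 14.33, then 15.19, 15.22 and 15.26, then 14.51, 14.51 and 15.03 (0.80 ± 0.21 at day 3, limma adjusted p = 0.0865). At day 7 the PKm2 knock-in alone stayed near the day 3 level in both genes.

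Atp5a1, subunit alpha of the catalytic head, read 15.68, 15.81 and 15.87 at day 0, 15.79, 15.78 and 15.73 at day 3 and 15.47, 15.27 and 15.87 at day 7, a range of 0.59. Atp5d, subunit delta of the central stalk, read 12.95, 13.66 and 13.15, 13.92, 13.74 and 13.60 and 13.19, 13.75 and 13.25 on the 3 days. Atp5o, which couples the peripheral stalk to the head, read 14.10, 14.27 and 13.90 at day 0, 13.78, 14.24 and 13.97 at day 3 and 13.83, 13.58 and 14.31 at day 7, and had the lowest signed day 3 difference of complex V, -0.09 ± 0.26. The c ring, which turns as protons pass, is encoded by 3 genes for the same mature protein. Atp5g1 read 15.49, 15.87 and 15.45, 16.35, 16.29 and 16.12 and 15.38, 14.99 and 15.79, Atp5g2 read 16.37, 16.73 and 16.10, 17.19, 16.76 and 16.51 and 16.35, 16.10 and 16.46, and Atp5g3 read 15.37, 15.90 and 15.70, 16.14, 16.50 and 16.20 and 15.45, 15.55 and 16.21 at days 0, 3 and 7. All were higher at day 3 in 3 of 3 lines, by 0.65 ± 0.27, 0.42 ± 0.26 and 0.62 ± 0.24, and the days did not overlap in Atp5g1 and Atp5g3.

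Complex IV held both called members and the widest spread, from -2.65 to 2.70. Its 12 members other than the tissue isoforms had a median of 0.24 at day 3, and the 7 tested tissue isoforms a median of 0.02. Cox7a2, the widely expressed form of subunit VIIa, read 13.91, 14.11 and 14.21 at day 0, 14.99, 15.01 and 14.97 at day 3 and 14.19, 13.91 and 14.75 at day 7. The day 3 values lay close together and above every day 0 value, a difference of 0.91 ± 0.23 that did not pass (limma adjusted p = 0.0758).

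**Figure D3:**
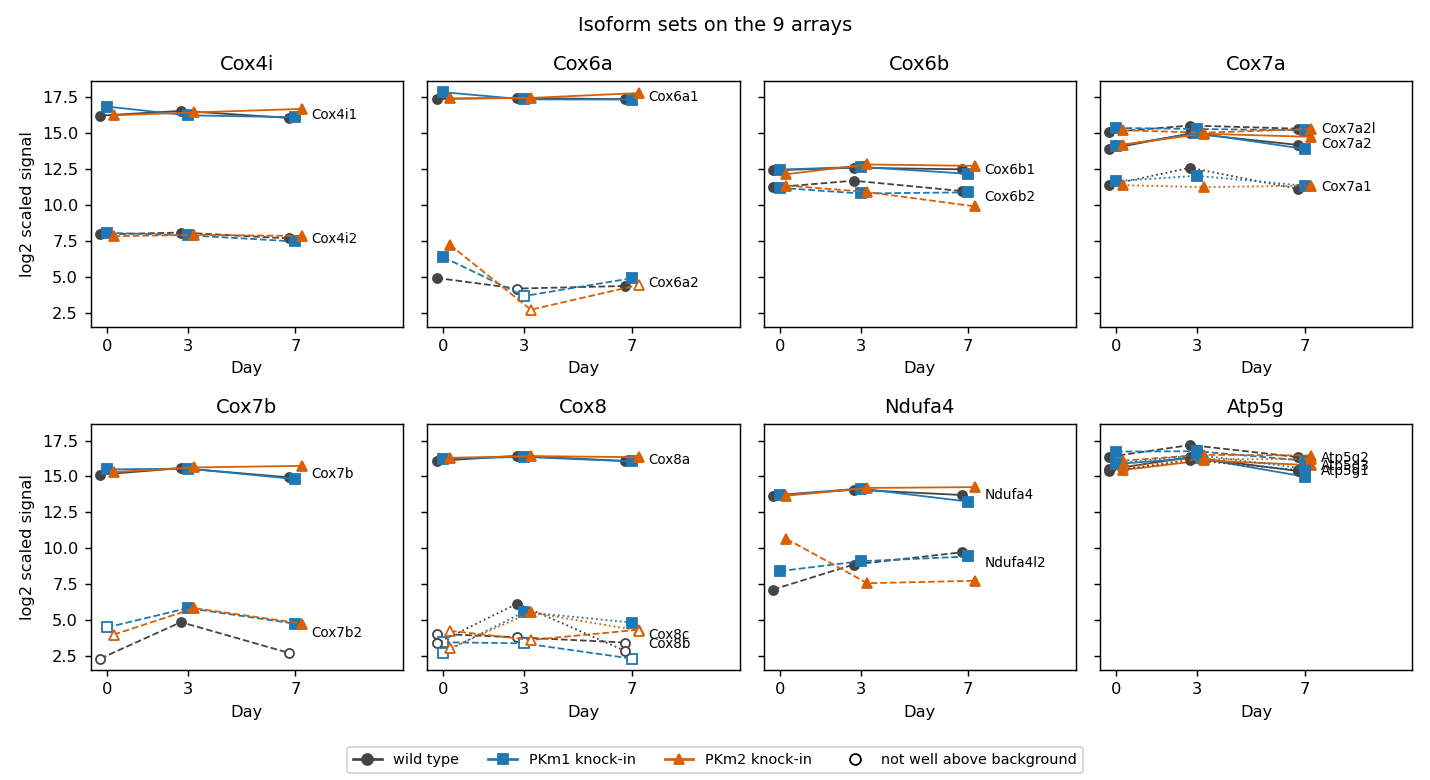
Log2 scaled signal (vertical axis) of the isoform sets on days 0, 3 and 7 (horizontal axis), by line (colour and marker, 1 array per point); open markers are not well above background. The widely expressed forms range over at most 1.36 log2 units (Atp5g1), which looks flat on the shared axis, and some, such as Cox7a2 and Atp5g1, peak at day 3. Cox7b2 and Cox8c also peak at day 3, Cox6a2 is higher at day 0, and Ndufa4l2 runs in opposite directions in the PKm2 knock-in and the other lines.

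Cox7b2, the testis form of subunit VIIb, read 2.32, 4.49 and 3.99 at day 0, 4.86, 5.84 and 5.83 at day 3 and 2.72, 4.75 and 4.76 at day 7. No day 0 array was well above background and all 3 day 3 arrays were. It was at least 2.38-fold higher at day 3 (measured log2 means 5.51 and 3.60, difference 1.91 ± 0.28, limma adjusted p = 0.0296), where the bound sets the day 3 mean against the lowest signal detected on each day 0 array. Within slide 1, where the PKm2 knock-in had both days, the difference was 1.84. Cox7b, its widely expressed partner, read 15.13, 15.49 and 15.31, 15.58, 15.55 and 15.63 and 14.94, 14.82 and 15.74 on the 3 days, 0.27 ± 0.25 higher at day 3.

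Cox8c, the testis form of subunit VIII, read 3.39, 2.74 and 3.04 at day 0, 6.15, 5.57 and 5.54 at day 3 and 2.86, 4.83 and 4.27 at day 7. It too was well above background on all 3 day 3 arrays and on no day 0 array. It was at least 2.82-fold higher at day 3 (difference 2.70 ± 0.52, limma adjusted p = 0.0456; within slide 1, 2.50). Both genes passed the detection filter through the arrays on which they were high, so each had to differ. Of 24 alternative settings, 12 kept the Cox7b2 call (adjusted p 0.0228 to 0.232) and 11 the Cox8c call (0.0122 to 0.194); leaving out any of the 3 lines, or any day 0 or day 3 array, ended both, as did testing probes without a filter (0.0567 and 0.0874). With normexp background correction the differences were 0.41 and 0.61 and neither was called (0.197 and 0.135), and with a floor of 20 they were 1.13 and 1.43 and both were. A filter on all 9 arrays left both untested. Cox8a, the form used in most tissues, read 16.08, 16.25 and 16.30, 16.44, 16.36 and 16.42 and 16.08, 16.05 and 16.34 on the 3 days, and Cox8b, the heart and muscle form, read 4.05, 3.46 and 4.26, 3.80, 3.38 and 3.62 and 3.44, 2.32 and 4.33 and stayed below detection on all 9 arrays. The 5 germline markers summed to 10.23 to 10.87 at day 0, 10.35 to 10.43 at day 3 and 9.45 to 10.41 at day 7; 2 of them were higher and 3 lower at day 3, with Piwil2 called lower (-1.53, limma adjusted p = 0.0413). Their part in the Cox7b2 and Cox8c values was not tested.

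Cox6a2, the heart and skeletal muscle form of subunit VIa, was lower at day 3, where Cox7b2 and Cox8c were higher. It read 4.93, 6.38 and 7.23 at day 0, 4.19, 3.67 and 2.72 at day 3 and 4.37, 4.91 and 4.44 at day 7. It was detected on all day 0 arrays and on no day 3 array, at least 3.72-fold lower at day 3, but the lines differed widely (-0.73, -2.71 and -4.51) and the difference did not pass (-2.65 ± 0.63, limma adjusted p = 0.0699). Cox6a2 passed the detection filter only with its day 0 arrays, where it was high, so its difference is not independent of that filter. The 9 tested cardiac muscle markers summed to 9.50 to 10.04 at day 0 and 9.70 to 10.25 at day 3. At day 3, 7 were higher and 2 lower (median 0.24), and none was called. Tnnt2, cardiac troponin T, had the lowest difference (-1.86 ± 0.39, limma adjusted p = 0.0520). It was well above background on 4 of 9 arrays and read 2.32, the floor, in both knock-ins at day 3. Of 5 skeletal muscle markers 2 were tested, with sums of 6.61, 6.24 and 8.04 at day 0 and 7.56, 7.15 and 6.84 at day 3. Acta1, skeletal actin, was well above background on 4 of 9 arrays and read 4.64 to 7.59 at day 0, highest in the PKm2 knock-in, and 3.09 to 4.24 at day 3, lower in each line as Cox6a2 was (-1.93 ± 1.53, limma adjusted p = 0.464), and Myh3, embryonic myosin, differed by 1.09 ± 0.43. The part of muscle cells in the Cox6a2 values was not tested. Cox6a1, the form of most tissues, read 17.39, 17.86 and 17.43, 17.46, 17.36 and 17.46 and 17.37, 17.35 and 17.80. Cox7a1, the muscle form of subunit VIIa, read 11.41, 11.67 and 11.39 at day 0, 12.60, 12.04 and 11.25 at day 3 and 11.12, 11.35 and 11.36 at day 7. It was high in the wild type at day 3 and flat in the PKm2 knock-in. Cox7a2l, a relative that joins complexes III and IV into supercomplexes, read 15.08, 15.37 and 15.21, 15.54, 15.30 and 15.04 and 15.32, 15.21 and 15.30, with overlapping days.

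Cox4i1 and Cox4i2 are the widely expressed form and the lung and low-oxygen form of subunit IV. Cox4i1 read 16.23, 16.86 and 16.25, 16.56, 16.25 and 16.45 and 16.07, 16.12 and 16.70 on the 3 days, and Cox4i2 read 7.96, 8.07 and 7.83, 8.09, 7.90 and 7.93 and 7.68, 7.47 and 7.85. The day 3 differences were smaller than their errors (-0.03 ± 0.28 and 0.02 ± 0.19). Cox6b1, the form of most tissues, read 12.42, 12.47 and 12.15, 12.60, 12.66 and 12.83 and 12.49, 12.18 and 12.73, and Cox6b2, its testis form, read 11.23, 11.20 and 11.36, 11.70, 10.81 and 10.91 and 10.98, 10.89 and 9.91. Cox6b2 was lowest in the PKm2 knock-in at day 7, and all its day 7 values lay below all day 0 values (-0.67 ± 0.31, limma adjusted p = 0.389).

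Ndufa4, once assigned to complex I and now to complex IV, read 13.66, 13.72 and 13.66 at day 0, 14.08, 14.16 and 14.20 at day 3 and 13.71, 13.25 and 14.26 at day 7. Ndufa4l2, its hypoxia-inducible relative, read 7.13, 8.41 and 10.66 at day 0, 8.87, 9.10 and 7.57 at day 3 and 9.72, 9.43 and 7.74 at day 7. It was lowest in the wild type and highest in the PKm2 knock-in at day 0, and the lines then ran in opposite directions: day 3 minus day 0 was 1.75, 0.70 and -3.09. The mean over lines, -0.22 ± 1.01, lies between these opposite differences. The 10 hypoxia targets summed to 14.83, 15.23 and 15.61 at day 0, 15.81, 15.99 and 15.97 at day 3 and 15.47, 16.54 and 15.50 at day 7, and none was called. Their median differences from day 0 were 0.63, 0.82 and 0.00 at day 3 and 0.35, 1.52 and -0.59 at day 7, where Ndufa4l2 differed by 2.59, 1.02 and -2.92. The signs at day 7 were the same in each line. At day 3 they were the same in the wild type and PKm1 knock-in only. In the PKm2 knock-in Ndufa4l2 differed by -3.09, while the target sum went from 15.61 to 15.97. The part of low oxygen in the Ndufa4l2 values was not tested.

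At day 7 the members stood close to day 0 on average, but the lines differed. Of 82 members 26 were higher (46.6% of all genes), 3 of them in 3 of 3 lines (15.6%). The median was -0.10 against -0.04 for all genes (-0.27 with slide as a block, where the PKm2 knock-in day 7 array adds nothing), and was -0.05 in the wild type, -0.46 in the PKm1 knock-in and 0.20 in the PKm2 knock-in. At day 7 pluripotency markers summed to 17.15, 16.32 and 17.76 (17.73, 18.11 and 17.73 at day 0). Visceral endoderm markers summed to 12.79, 18.80 and 11.43 (9.08, 9.10 and 9.04 at day 0). Fibroblast or feeder markers summed to 11.98, 12.57 and 8.92 (13.93, 13.89 and 11.73 at day 0). The part of these cell types in the line medians was not tested. The limma test called 0 members, against 15 of 15016 genes (0.0999%), and 1 member had an unadjusted p under 0.05 (14.3% of all genes). In 19 members the difference was negative in 3 of 3 lines (20.6% of all genes); 10 did not overlap and were lower (8.91%) and 0 were higher (6.85%). From day 3 to day 7, 75 of 82 were lower and 7 higher (41.9% of all genes), 41 were lower in 3 of 3 lines (33%), and the median was -0.38 against -0.13 for all genes, with line medians of -0.56, -0.58 and -0.01. Limma called 0 members and 0 of 15016 genes there, with 18 members and 4551 genes (30.3%) at an unadjusted p under 0.05; 35 members did not overlap and were lower (21.6% of all genes). Without the PKm2 knock-in day 7 array, which is alone on its slide, 2383 of 15016 genes were called. They included 6 of 82 members: Atp5g1, Atp5l, Cox7a2, Cox7b2, Ndufa5 and Uqcrh. With quantile normalization the median was -0.09, and with scaling to detected probes -0.18. The F test over the 3 days called 178 genes (1.19%) and 0 members, 17 of which had an unadjusted p under 0.05 (29.9% of all genes).

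**Figure D4:**
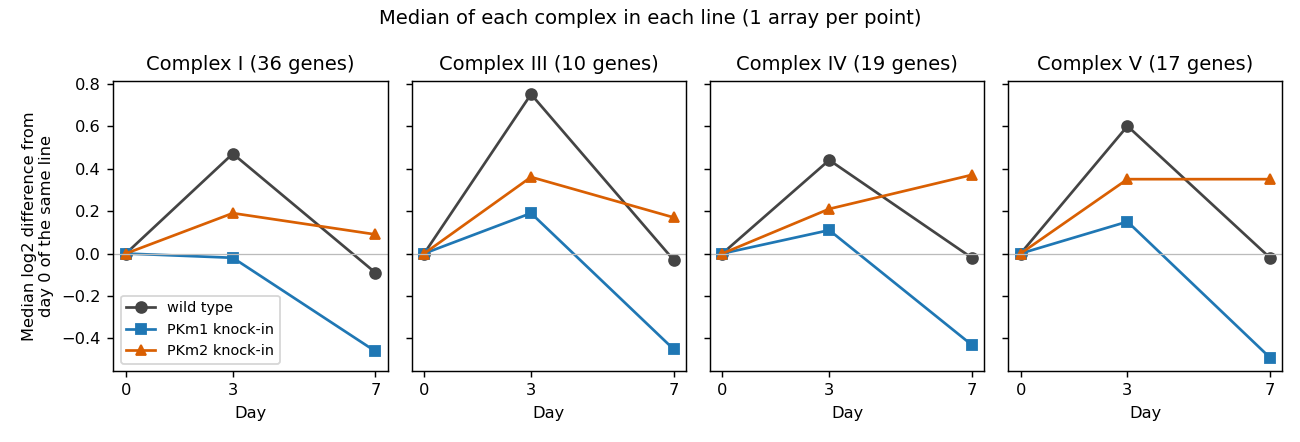
Median log2 difference from day 0 of the same line (vertical axis) for the members of each complex on days 0, 3 and 7 (horizontal axis), 1 array per point. In the wild type and PKm1 knock-in each complex is lower at day 7 than at day 3, while in the PKm2 knock-in complex I goes from 0.19 to 0.09, III from 0.36 to 0.17, IV from 0.21 to 0.37, and V is 0.35 on both days.

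Between genotypes no member was called. For the PKm1 knock-in against the wild type, 54 of 82 were higher (55.6% of all genes) and the median was 0.07 (0.05 for all genes). By day the median was 0.36, -0.03 and -0.06 (0.12, 0.00 and -0.02 for all genes). At each day these 2 lines sat on different slides, so line and slide cannot be told apart. In this comparison limma called 2 of 15016 genes (0.0133%) and 0 members, 4 of which had an unadjusted p under 0.05 (12.3% of all genes). For the PKm2 knock-in 62 were higher (53.7% of all genes); the median was 0.15 (0.04 for all genes), by day 0.10, -0.06 and 0.43, and limma called 2 genes (0.0133%) and 0 members, 3 at an unadjusted p under 0.05 (13.4%). Quantile normalization turned both medians negative, -0.05 and -0.02. Between the 2 knock-ins 51 were higher in PKm2 (49.3% of all genes); the median was 0.04, by day -0.23, -0.06 and 0.46, and limma called 0 genes and 0 members, with 1193 genes (7.94%) and 1 member, Ndufab1, at an unadjusted p under 0.05. The F test over genotypes called 2 genes (0.0133%) and 0 members, 5 of which had an unadjusted p under 0.05 (12.9% of all genes). The 2 comparisons with the wild type share its 3 arrays.

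Cycs, the somatic cytochrome c that carries electrons to complex IV and triggers apoptosis when released, was lower in the wild type. It read 13.00, 14.44 and 14.34 at day 0, 14.21, 14.95 and 14.89 at day 3 and 12.94, 14.16 and 14.43 at day 7. At each day both knock-ins were above the wild type, and PKm2 knock-in values lay above all wild-type values. The differences were 1.13 ± 0.22 for PKm1 (limma adjusted p = 0.159) and 1.17 ± 0.22 for PKm2 (0.118), neither called. A second Cycs probe gave 0.73 and 0.93; the remaining probe, near background, gave -0.02 and -0.23. Ndufb2, an accessory subunit of the complex I membrane arm, read 12.24, 13.19 and 13.34 at day 0, 12.49, 13.77 and 13.59 at day 3 and 12.06, 12.73 and 13.62 at day 7. All knock-in values lay above all wild-type values, by 0.97 ± 0.24 for PKm1 (limma adjusted p = 0.211) and 1.25 ± 0.24 for PKm2 (0.120). Members whose values did not overlap with the wild type and were higher numbered 3 for PKm1 (5.48% of all genes) and 6 for PKm2 (7.93%), shares near the background; 0 were lower (4.71% and 6.43%). Cox7b2 was also higher in both knock-ins, by 1.73 ± 0.28 and 1.56 ± 0.28 (limma adjusted p = 0.129 and 0.118), but only 1 of 3 wild-type arrays measured it.

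**Figure D5:**
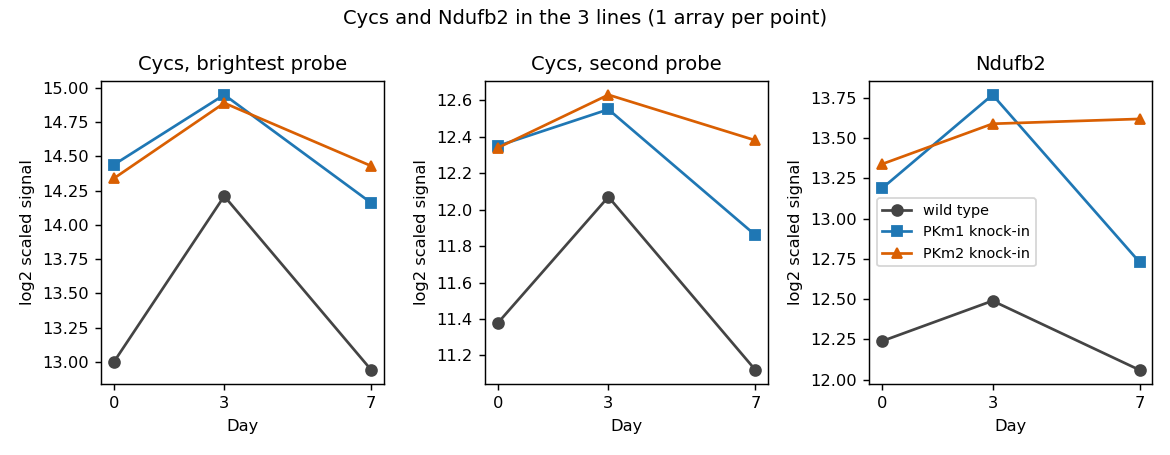
Log2 scaled signal (vertical axis) of the 2 brighter Cycs probes and of Ndufb2 on days 0, 3 and 7 (horizontal axis), by line, 1 array per point; each vertical axis has its own range and does not start at 0. The wild type lies below both knock-ins on every day in all 3 panels.

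The promoters of 5 of these genes are shown because the results above turn on them: Cycs and Ndufb2 for the genotypes, Uqcr11, Atp5md and Cox7b2 for day 3. Each stretch is the 170 bases before the start site, 5′ to 3′ on the gene's strand, from RefSeq on GRCm38.p6; capitals mark matches to the motifs described after them. Cycs is on the minus strand at chr6:50566570-50566739, Ndufb2 on the plus strand at chr6:39592395-39592564, Uqcr11 on the minus strand at chr10:80406822-80406991, Atp5md on the minus strand at chr19:47090648-47090817 and Cox7b2 on the minus strand at chr5:71548206-71548375.
Cycs: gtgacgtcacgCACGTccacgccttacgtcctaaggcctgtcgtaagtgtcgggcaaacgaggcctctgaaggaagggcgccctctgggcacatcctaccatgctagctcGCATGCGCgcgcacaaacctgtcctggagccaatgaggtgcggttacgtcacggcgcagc
Ndufb2: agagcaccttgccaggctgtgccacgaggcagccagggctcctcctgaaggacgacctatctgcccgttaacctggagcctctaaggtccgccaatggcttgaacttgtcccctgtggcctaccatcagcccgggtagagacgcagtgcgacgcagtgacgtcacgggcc
Uqcr11: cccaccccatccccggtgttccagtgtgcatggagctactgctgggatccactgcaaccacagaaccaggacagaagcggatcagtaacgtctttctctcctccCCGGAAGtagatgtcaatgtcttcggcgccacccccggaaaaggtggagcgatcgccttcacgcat
Atp5md: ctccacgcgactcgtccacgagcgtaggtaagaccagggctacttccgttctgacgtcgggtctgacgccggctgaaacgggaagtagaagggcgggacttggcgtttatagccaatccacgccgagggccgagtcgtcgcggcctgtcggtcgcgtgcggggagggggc
Cox7b2: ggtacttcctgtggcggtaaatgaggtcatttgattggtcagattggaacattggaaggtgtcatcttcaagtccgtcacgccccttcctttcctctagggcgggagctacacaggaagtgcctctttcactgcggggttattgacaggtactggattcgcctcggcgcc

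The motifs, searched on both strands in 300 bases around each start site, were GCATGCGC, part of the site of NRF1, CCGGAAG for ETS factors such as GABP, AAGATGGC for YY1, AAGGTCA for the estrogen-related receptors and ACGTG, the core of the hypoxia element. RefSeq's table held a promoter for 69 of the 86 members and 27025 genes in all. GCATGCGC was in 14.5% of members' promoters and 3.05% of all, CCGGAAG in 21.7% and 9.93%, and AAGATGGC in 14.5% and 3.19%. AAGGTCA was in 7 of the 69 and 5.38% of all, and ACGTG in 26.1% and 21.8%. In the stretches shown, Cycs held GCATGCGC 60 bases before the start and ACGTG, on the other strand, 159 bases before it, and Uqcr11 held CCGGAAG 66 bases before it. No matches shown overlapped, and a match describes letters, not binding.

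The genes that build and accompany these complexes were read from lists. At day 3, 3 of 4 complex II genes were higher (median 0.24), as were 11 of 15 complex I assembly factors (0.28), 3 of 5 for complex III (0.18), 17 of 20 for complex IV (0.37) and 2 of 4 for ATP synthase (-0.01). Of 18 genes listed for mitochondrial mass, which cover import, protein folding, structure, membrane channels and carriers, and citrate synthase, 17 were higher (0.54). Of 17 regulators of respiratory genes 8 were (0.00). Of all genes 56.8% were higher at day 3, with a median of 0.09. None of the listed genes was called, against 4.01% of all genes. Taking the highest gene of a list, the differences were Sdhd, a membrane anchor of complex II (0.81 ± 0.22, limma adjusted p = 0.0908), Dmac1, a complex I assembly factor (1.09 ± 0.23, 0.0524), Taco1, which activates translation of a complex IV subunit (0.83 ± 0.20, 0.0725), and Hspd1, the mitochondrial chaperonin (1.13 ± 0.25, 0.0578). Ecsit, another complex I assembly factor, named after its values were seen, differed by 1.02 ± 0.27 (0.0855). On the low side, Ndufaf3, a complex I assembly factor, differed by -0.78 ± 0.19 (0.0718), and Sco1, a copper chaperone of complex IV, by -0.64 ± 0.20 (0.117).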

How the data were processed

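Per the labels' protocols, total RNA was column-purified and 0.1 µg labelled with Cy3. Per the submitters' processing notes, arrays were read with Agilent Feature Extraction 10.10; the deposited scanner files hold its background-subtracted processed signal, an intensity, and the authors' value table differs from it by at most 0.497%. Controls and outlier spots were dropped, arrays scaled to a common 75th percentile, values floored at 5 and log2 taken. Probes were named by accession through RefSeq (27235 of 55681 had 1 symbol, 28446 none); a gene's brightest probe was used. limma 3.58.1 (R 4.3.3) fitted genotype plus day on all 9 arrays (4 residual degrees of freedom), with Benjamini-Hochberg adjustment over 15016 genes and a threshold of 0.05; slide blocks, other scalings, filters and left-out arrays were tried. On simulated data with 200 shifted genes among 15016, day 3 minus day 0 shifts of 1, 2 and 3 log2 units were called in 0%, 67.5% and 83.5%. The number of arrays limits the precision. Printed in full were isoform sets, called members and the highest and lowest member of each complex per contrast. Members and lists were chosen with earlier results of these data known.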

Additional observations from a re-analysis of the deposited data

Results flagged for a closer look

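The day 7 minus day 0 medians ran in opposite directions in different lines. In complex IV they were -0.02 in the wild type, -0.43 in the PKm1 knock-in and 0.37 in the PKm2 knock-in, and in complex V -0.02, -0.49 and 0.35. Ndufa4l2 differed from day 0 by 1.75, 0.70 and -3.09 at day 3 and by 2.59, 1.02 and -2.92 at day 7. The differences between lines were not tested, since each line and day had 1 array.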

How the results depend on the processing

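The count of members called at day 3 against day 0, 2 in the fit reported, was 1 with scaling to detected probes or slide as a block, 0 with no filter, with a filter on all 9 arrays or without any of the 3 lines, 4 with trend and robust moderation, with only the 6 arrays compared or without day 7, and 7 at an adjusted p under 0.1; leaving out 1 array gave 0 to 4. Over all 15016 genes the counts were 602 in the fit reported, 626 with scaling to detected probes and 581 with slide as a block. They were 1019 with trend and robust moderation and 1426 with only the 6 arrays compared or without day 7. At an adjusted p under 0.1, 1751 genes passed. Without a filter 151 of 20660 genes were called, and with a filter on all 9 arrays 664 of 12789. Where leaving out 1 array called 4 members, 1259 genes were called. From day 3 to day 7 the count of 0 became 1 with slide as a block, 3 at an adjusted p under 0.1 and 0 to 6 without 1 array. All-gene counts there were 986, 1941 and, where 6 members were called, 2383 of 15016. The F test over days went from 0 to 1, 2 and 0 to 3 under the same changes. Its all-gene counts were 722, 1587 and, where 3 members were called, 2009. Under all alternatives the median of members stayed within 0.09 to 0.45 at day 3 against day 0 and -0.57 to -0.09 from day 3 to day 7; the other 4 changed sign, with ranges of -0.27 to 0.11 (day 7 against day 0), -0.07 to 0.21 (PKm1), -0.02 to 0.25 (PKm2) and -0.14 to 0.19 (PKm2 against PKm1). Of 1592 alternatives of 64 named values, 1476 kept direction and side of the threshold, 82 changed the sign of an uncalled value, 25 lost and 9 gained a call, and 0 reversed a called value. Beyond settings with fewer arrays or another set of genes tested, the cause was not tested. No paired analysis was possible by replicate number because each line and day had 1 array; days were compared within lines, line being a term of the fit. Signals near background limit Cox6a2, Cox7b2 and Cox8c.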
